A study of Mus musculus with 20 samples.

Results

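The Nxph4 region on mouse chromosome 10 was examined as a chain of neighbouring restriction intervals whose methylation rose in hypothalamic neurons after birth. All intervals of the table that overlap a 20-kb window of chromosome 10 (mm9 assembly) around them were taken, which gave 6 of 50782 intervals, all between positions 126961842 and 126969582. The window was chosen by its read counts in neurons, which were known from these same libraries to be higher at P21 than at P0. Values in neurons are therefore a description, and p-values are given only for measures in non-neurons, whose libraries do not enter that difference. Hypothalami came from inbred male mice of strain C57BL/6 at birth, which is postnatal day 0 (P0), or at postnatal day 21 (P21), and each library was made from nuclei of 2 pooled hypothalami. Nuclei were sorted by fluorescence for NeuN, a nuclear marker of neurons, into neurons (stained) and non-neurons (unstained). The 4 groups were P21 neurons, P21 non-neurons, P0 neurons and P0 non-neurons, with 5 libraries each. The labels give no transgene or treatment for any group. Marker genes cannot be read from this assay, so the purity of the sort was not checked against them.

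Nxph4 encodes neurexophilin 4, a member of a family of secreted, neuropeptide-like glycoproteins. The family is known for binding alpha-neurexins, adhesion proteins of the presynaptic membrane that help to organise synapses. In the GRCm38.p6 gene table of RefSeq the neighbouring protein-coding genes are Shmt2, a mitochondrial enzyme of serine and glycine metabolism, and Lrp1, a large endocytic receptor of the LDL receptor family. The table of intervals names no genes and the annotation at hand is of another build, so the intervals were not placed in exons, introns or promoters.

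The assay, methylation-specific amplification followed by sequencing, reads cytosine methylation at CCCGGG sites. SmaI first cuts the unmethylated sites to blunt ends, XmaI then cuts the methylated sites to sticky ends, and adaptors join only the sticky ends. PCR thus copies a fragment only if both end sites carry methylation, so a higher read count stands for more methylation at 2 sites at once, on a relative scale. Counts are given as CPM, reads per 1000000 of the library size after scaling by TMM (trimmed mean of M-values). Level differences between intervals also depend on fragment length and amplification. Libraries held 5663740 to 9998110 reads.

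The 6 intervals touched each other end to end. They formed a chain of 7740 bp with 7 cut sites, in which every inner site bounds 2 intervals, so neighbouring values are not independent. In order along the chromosome the first interval was chr10:126961842-126963029 (1187 bp), the second chr10:126963029-126964608 (1579 bp) and the third chr10:126964608-126965533 (925 bp). The fourth was chr10:126965533-126965994 (461 bp), the fifth chr10:126965994-126968013 (2019 bp) and the sixth chr10:126968013-126969582 (1569 bp). The first 5 held enough reads to be tested. The fifth entered the test through its counts in P21 neurons alone. The first also passed the filter only with P21 neurons counted, since its counts in the other groups would not have sufficed. The sixth was not tested.

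The chain held many reads in P21 neurons, fewer in P21 non-neurons and few in either P0 group. Summed over the 6 intervals, it had 89.6 ± 5.15 CPM in P21 neurons, 22.7 ± 3.42 in P21 non-neurons, 5.91 ± 1.26 in neurons at P0 and 7.90 ± 0.621 in P0 non-neurons (SD, n = 5 each). In reads this was 727 to 966 per library in P21 neurons, 128 to 194 in P21 non-neurons, 21 to 45 in neurons at P0 and 43 to 63 in P0 non-neurons. The small P0 counts limit the precision of every fold change below.

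The third interval, the tested member with the largest change in neurons, carried the largest share of these reads in every group. It had 58.1, 51.1, 54.5, 51.2 and 60.0 CPM in the 5 libraries of P21 neurons. In P21 non-neurons it had 13.1, 12.6, 11.7, 9.45 and 13.2 CPM. In P0 neurons it had 2.42, 2.55, 2.11, 2.23 and 2.27 CPM, and in P0 non-neurons 2.45, 2.89, 3.13, 2.47 and 2.16 CPM. All P21 neuron libraries lay above all P21 non-neuron libraries, and both P21 groups lay above every P0 library, while the P0 groups overlapped. The P21 over P0 difference in neurons was 23.5-fold (log2 fold change 4.56 ± 0.15, SE), which ranked 53 among the 26679 tested intervals.

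The fourth interval shares a cut site with the third and followed the same order of groups. It had 14.4, 13.6, 13.5, 12.7 and 14.7 CPM in P21 neurons, against 5.72, 4.07, 3.59, 3.33 and 4.11 in P21 non-neurons. At birth it had 1.56, 0.75, 0.528, 1.20 and 1.21 CPM in neurons, against 2.14, 1.28, 0.953, 2.01 and 2.16 in non-neurons. Again the P21 groups were apart from each other and from both P0 groups, which overlapped. The difference in neurons between P21 and P0 was 13.0-fold (log2 fold change 3.70 ± 0.25, SE).

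The second interval touches the third on its other side. It had 10.1, 10.9, 7.58, 13.0 and 12.4 CPM in P21 neurons and 5.44, 3.79, 4.45, 2.36 and 2.82 in P21 non-neurons. It had 1.73, 1.35, 0.176, 1.72 and 1.97 CPM in P0 neurons, against 2.60, 1.28, 2.59, 1.85 and 2.16 in P0 non-neurons. P21 neurons were above all other libraries, whereas the lowest P21 non-neuron library lay within the range of P0 non-neurons. The difference in neurons was 7.62-fold (log2 fold change 2.93 ± 0.29, SE).

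The first interval, at the end of the chain, had 7.35, 7.04, 8.09, 9.23 and 7.46 CPM in P21 neurons and 1.81, 2.25, 1.98, 2.22 and 0.822 in P21 non-neurons. In P0 neurons it had 0.346, 1.5, 0.352, 0.686 and 0.303 CPM, and in P0 non-neurons 0.459, 0.962, 1.22, 1.23 and 0.720. P21 neurons stood apart from all other groups and the remaining groups overlapped. The P21 over P0 difference in neurons was 11.7-fold (log2 fold change 3.55 ± 0.34, SE), from 2 to 10 reads per library in P0 neurons.

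Toward the other end of the chain reads ran out. The fifth interval had 1.93 ± 0.212 CPM in P21 neurons (1.76 to 2.26), 0.553 ± 0.114 in P21 non-neurons, 0.388 ± 0.170 in neurons at P0 and 0.340 ± 0.129 in P0 non-neurons (SD, n = 5 each). P21 neurons, with 14 to 23 reads per library, lay above the others, which had 1 to 5 reads. The difference in neurons was 4.77-fold (log2 fold change 2.25 ± 0.42, SE). The sixth interval had 0 to 4 reads in P21 neurons, 0 to 6 in P21 non-neurons, 0 to 2 in neurons at P0 and 0 to 3 in P0 non-neurons, and was at 0 in 8 of the 20 libraries. A count of 0 allows up to 3 reads, which came to between 0.307 and 0.519 CPM in those libraries, so no difference between groups was detectable there at this depth.

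**Figure D1:**
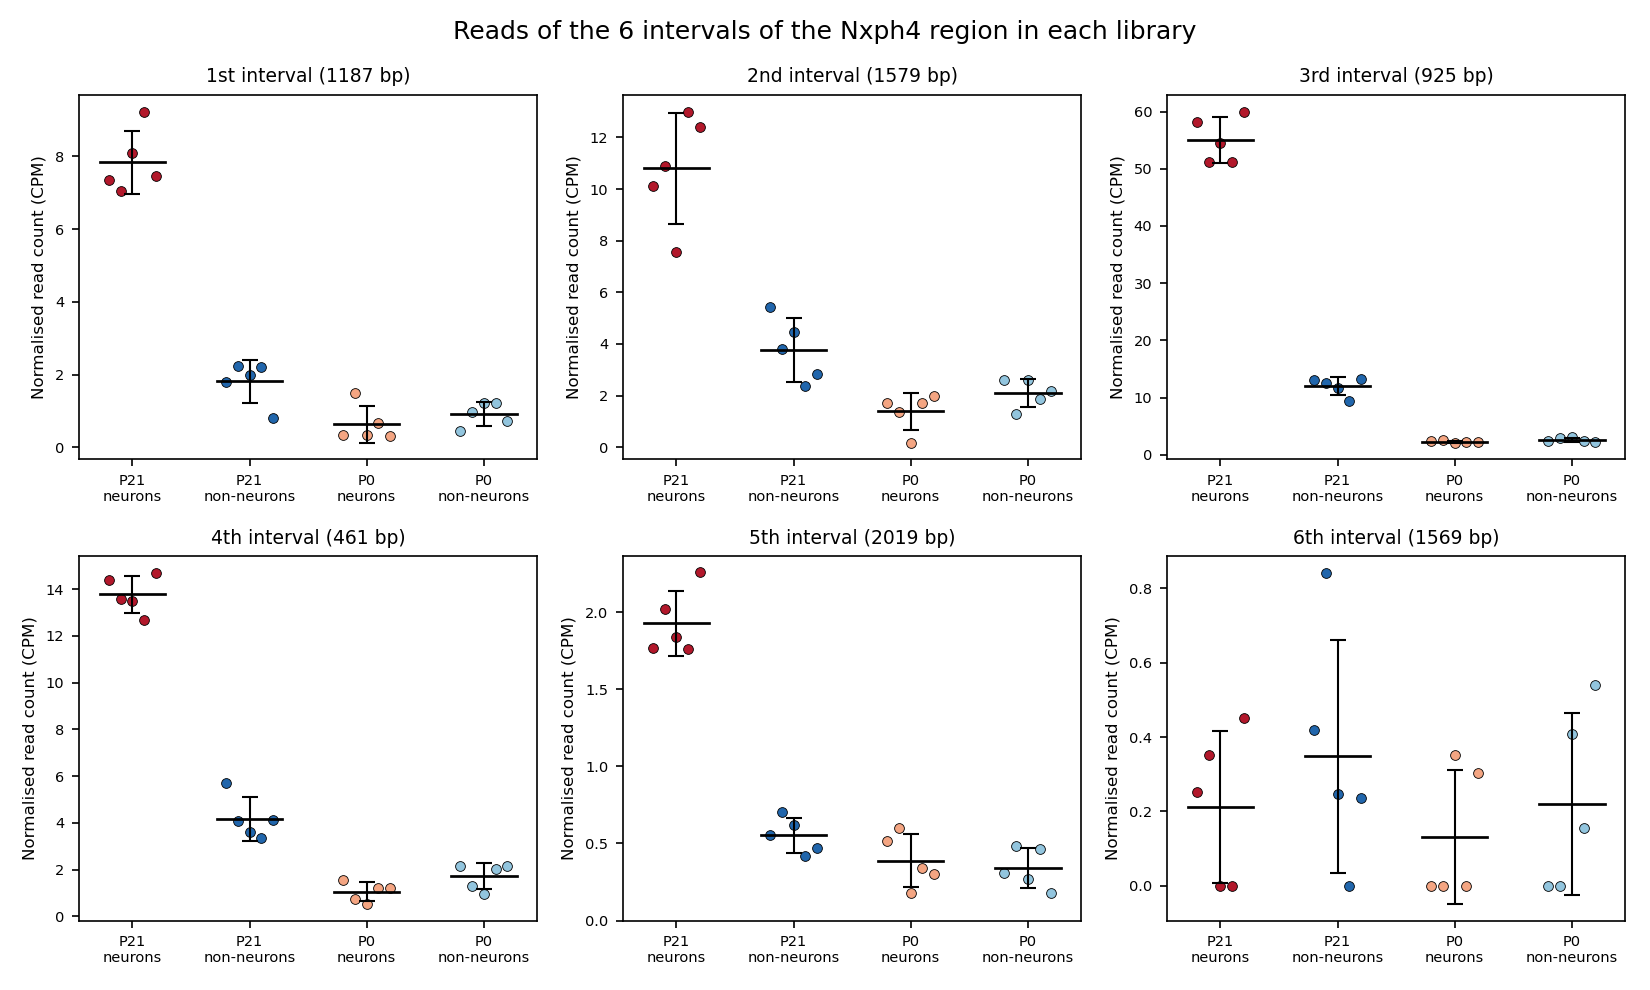
Normalised read count (CPM, linear axes that differ between panels) of each of the 6 intervals in every library, with 5 points per group and the mean ± SD in black. P21 neurons lie above all other libraries in the first 5 panels, and the sixth interval stays under 1 CPM in all groups.

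**Figure D2:**
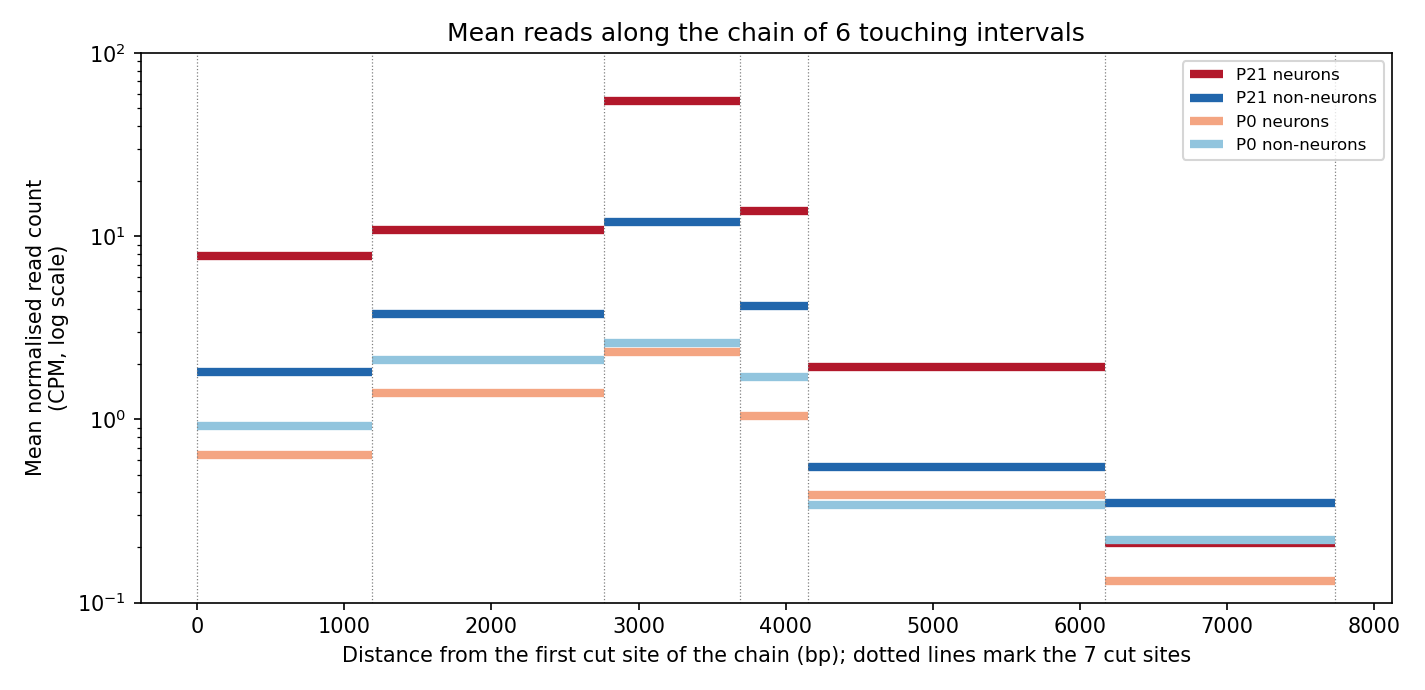
Mean CPM of each group (log axis) drawn over the length of each interval, against distance in bp from the first cut site of the chain. The third interval is the peak at both ages, at 55.0 CPM in P21 neurons, and levels in P21 neurons drop to 0.211 CPM at the sixth.

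Fragments of different length amplify differently, so each interval was also set beside intervals elsewhere in the table whose length was within 10% of its own. In P21 neurons the third interval exceeded 62.2% of the 2352 intervals of similar length, which had a median of 27.4 CPM. In P0 neurons it exceeded 29.8% of them, with a median of 22.1 CPM. The second interval exceeded 52.8% of its 3228 length matches in P21 neurons and 26.3% in P0 neurons, and the first 37.7% of 2714 in P21 neurons and 16.8% in P0 neurons. The fourth exceeded 59.0% of 2094 in P21 neurons and 46.3% in P0 neurons. The fifth exceeded 38.4% of 4278 intervals in P21 neurons and 19.3% in P0 neurons, and the sixth 8.45% of 3220 in P21 neurons and 6.68% in P0 neurons. By this measure the second, the third and the fourth interval lay above the median level for their length in P21 neurons and below it in P0 neurons. The first, the fifth and the sixth lay below it at both ages. In non-neurons the third exceeded 44.6% of its length matches at P21 and 30.7% at P0, the second 37.9% at P21 and 33.2% at P0, and the first 24.4% at P21 and 18.8% at P0. The fourth exceeded 54.1% in P21 and 48.7% in P0 non-neurons, the fifth 20.5% in P21 and 17.3% in P0 non-neurons, and the sixth 11.4% in P21 and 8.54% in P0 non-neurons.

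Non-neurons share no library with the contrast on which the region was chosen, and there too reads rose with age. Both age comparisons set P21 against P0 in the same fit and scaling, and touching intervals share cut sites. Calls in non-neurons may therefore not be independent of the choice or of each other. Moreover, the first and the fifth interval passed the filter only with P21 neurons counted. In the fit of edgeR's quasi-likelihood test to all 20 libraries, with Benjamini-Hochberg adjustment over 26679 tested intervals, 4 of the 5 tested members were higher in P21 than in P0 non-neurons at an adjusted p under 0.05, and 0 were lower. Over all tested intervals 28.5% were called higher in this comparison. The third interval rose most, to 12 ± 1.54 CPM in P21 non-neurons, where P0 non-neurons had 2.62 ± 0.386 (SD, 5 libraries each). Its log2 fold change was 2.18 ± 0.16 (SE), with an adjusted p of 1.16e-14 by edgeR's test, and 1.05% of the tested intervals had a larger one. The fourth rose to 4.16 ± 0.929 CPM in P21 non-neurons against 1.71 ± 0.555 in P0 non-neurons, by 1.29 ± 0.26 on the log2 scale (SE), with an adjusted p of 4.81e-05.

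The outer intervals changed less in non-neurons. The second had 3.77 ± 1.24 CPM at P21 against 2.10 ± 0.552 at P0 (0.83 ± 0.29 on the log2 scale, SE; adjusted p = 0.0159 by edgeR). The first had 1.82 ± 0.584 CPM at P21 against 0.920 ± 0.334 at P0 (0.94 ± 0.37 on the log2 scale, SE; adjusted p = 0.0281 by edgeR). For the fifth the log2 fold change of 0.66 ± 0.51 (SE) did not pass the test (adjusted p = 0.277 by edgeR). Groups of non-neurons did not overlap at 2 of the 5 tested intervals, the third and the fourth, against 17.5% of tested intervals for which all P21 libraries lay above all P0 libraries.

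The calls of the first and second intervals in non-neurons lay near the threshold and were lost under several alternatives. Over all alternatives the log2 fold change ran from 0.77 to 1.17 for the first interval and from 0.54 to 1.06 for the second. Principal component 3 of all tested intervals, with 5.06% of the variance, set replicates 1 to 3 of P0 neurons (30.2 to 44.3) apart from replicates 4 and 5 (-18.9 and -15.7). In P0 non-neurons the gap was narrower, with -16.2 to 9.22 in replicates 1 to 3 against -27.2 and -42.6 in replicates 4 and 5. Without P0 replicates 4 and 5 the log2 fold change was 0.98 for the first interval (adjusted p = 0.0597 by edgeR) and 0.77 for the second (adjusted p = 0.0621). Without P0 replicates 1 to 3 it was 0.83 for the first (adjusted p = 0.156) and 0.90 for the second (adjusted p = 0.0517), and 2 of the 5 members were called in either case. Each call was also lost when single libraries were left out. The first interval had a log2 fold change of 0.77 to 0.89 and an adjusted p of 0.0532 to 0.0864 without P21 non-neuron replicate 2, 3 or 4 or P0 non-neuron replicate 1 or 5. The second had 0.67 (adjusted p = 0.0633) without P21 non-neuron replicate 1 and 0.70 (adjusted p = 0.0533) without P0 non-neuron replicate 2. Its log2 fold change was 0.54, and the call was lost at an adjusted p of 0.123, when the trend of each library with interval length was removed. The third interval kept a log2 fold change of 2.07 to 2.45 under every alternative tried.

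Contrasts with neurons hold the libraries that led to the choice of the region, so their calls only describe it. The 5 tested members were called higher in P21 than in P0 neurons, as were 31.0% of all tested intervals, and higher in P21 neurons than in P21 non-neurons, as were 20.8% of them. The fifth interval entered the test only through P21 neurons, so it had to differ in both. The first passed the filter only with P21 neurons counted, which favoured a call in both and in the interaction term. The P21 neuron over non-neuron fold was 4.56 for the third interval (log2 fold change 2.19 ± 0.12, SE), 4.32 for the first, 3.31 for the fourth, 3.43 for the fifth and 2.86 for the second. The age change was larger in neurons than in non-neurons by the interaction term at 4 of the 5, against 10.9% of tested intervals. The ratios at P21 lay closer together than the age changes in neurons, which ran from 4.77-fold to 23.5-fold.

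**Figure D3:**
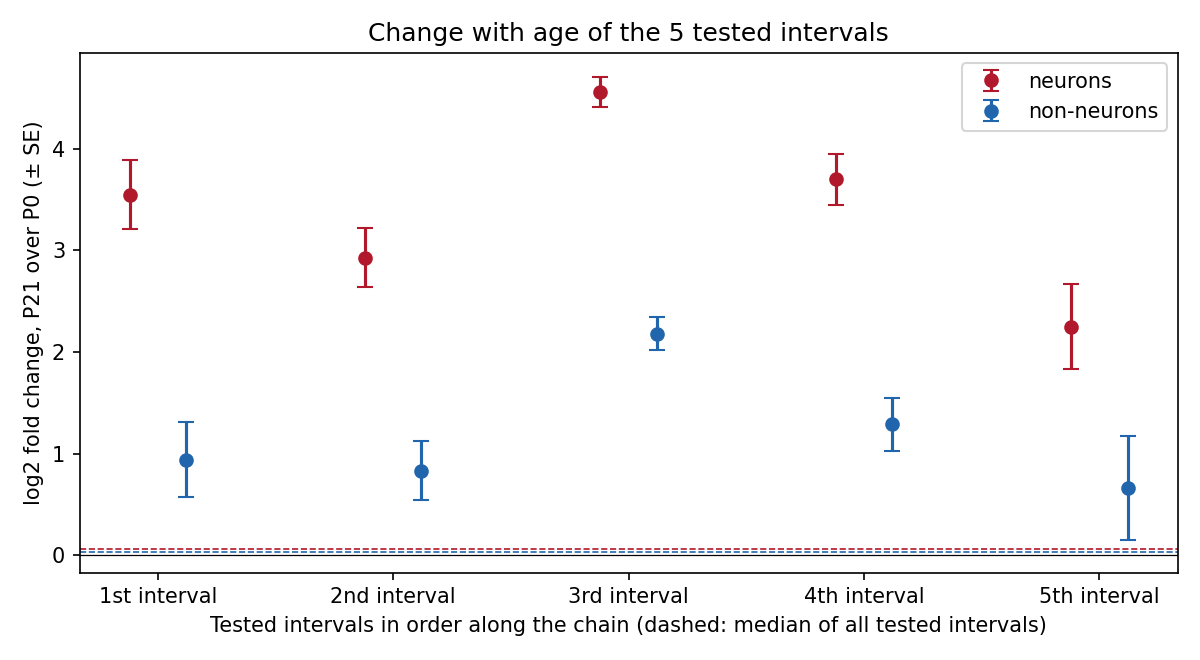
Log2 fold change of P21 over P0 for the 5 tested intervals in order along the chain, in neurons (red) and non-neurons (blue), with bars for the SE and dashed lines for the medians of all tested intervals (0.062 for neurons, 0.034 for non-neurons). The third interval has the largest change in both cell types, 4.56 in neurons against 2.18 in non-neurons.

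**Figure D4:**
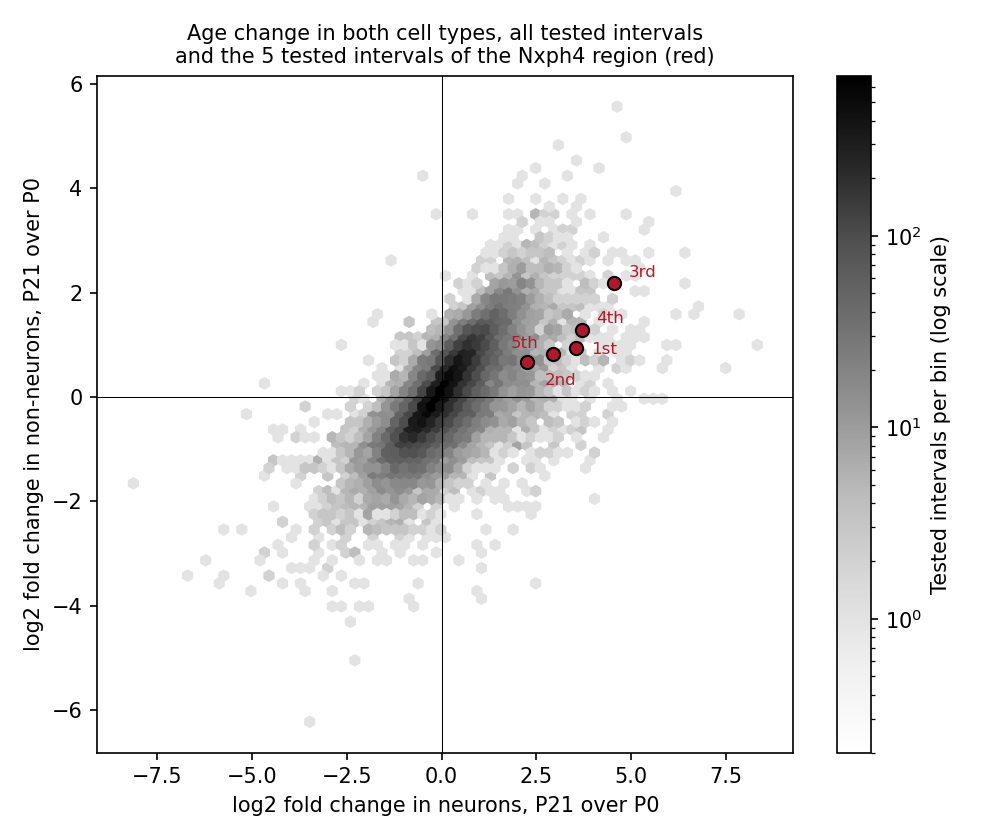
Log2 fold change of P21 over P0 in neurons (horizontal axis) and non-neurons (vertical axis) for all 26679 tested intervals, shaded by their number per bin on a log scale, with the 5 tested members in red. The members lie to the right of zero in neurons, from 2.25 to 4.56, and above zero in non-neurons, from 0.66 to 2.18.

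At birth the mean sum of the chain was lower in neurons, at 5.91 CPM against 7.90 in non-neurons. The sum was 3.69 to 6.75 CPM in P0 neurons and 6.90 to 8.57 in P0 non-neurons, narrowly without overlap. In reads before scaling the groups overlapped, with 21 to 45 in P0 neurons and 43 to 63 in P0 non-neurons. Other scalings were not tried for the sum. The P0 neuron libraries belong to the contrast that the region was chosen on, where low counts at P0 favoured the choice, so this is a description. Of the single intervals none was called. In the comparison of P0 neurons with P0 non-neurons 0 of 5 tested members were called by edgeR, and 0 by DESeq2, against 9.78% of tested intervals in either direction by edgeR. The largest difference was at the fourth interval, with fewer reads in neurons, and the limit set by the choice of the region holds for the single intervals too. At each single interval the groups overlapped, and they were fully apart at only 9.4% of tested intervals. With shares this low, 0 of 5 is what most intervals would give and says little about these members. The log2 fold change was -0.18 ± 0.21 for the third interval, -0.68 ± 0.33 for the fourth, -0.58 ± 0.35 for the second, -0.50 ± 0.45 for the first and 0.19 ± 0.57 for the fifth (SE). With these standard errors a moderate difference at birth could have gone undetected.

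P21 non-neurons had 21.9% of the CPM of P21 neurons at the third interval, 23.2% at the first, 28.6% at the fifth, 30.2% at the fourth and 34.9% at the second. Whether stained and unstained nuclei were fully parted in the sort was not tested.

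The reads of the chain were also distributed differently at the 2 ages. The third interval held 61.4 ± 2.23% of the chain's reads in P21 neurons, 53.3 ± 4.59% in P21 non-neurons, 40.7 ± 9.22% in neurons at P0 and 33.3 ± 5.83% in P0 non-neurons (SD, n = 5 each). In non-neurons its share was 48.5, 52.0, 51.9, 53.1 and 60.9% in the P21 libraries, against 30.8, 41.9, 36.5, 30.2 and 27.3% in the P0 libraries, with no overlap. The difference was 20 percentage points (two-sided exact permutation p = 0.00794, the smallest that 5 against 5 libraries can give; adjusted p = 0.0476 over the shares of the 6 intervals). The second interval's share was lower in P21 than in P0 non-neurons, 16.3 ± 3.39% against 26.3 ± 5.69%, which did not pass the adjustment (exact permutation p = 0.0238, adjusted p = 0.0714). Shares add up to the whole, so a higher share of the third interval lowers the others. In neurons the share of the third interval was 20.7 points higher at P21 than at P0. The share in P0 neuron replicate 3 was 57.1% from 21 reads of the chain, and without that library P0 neurons held 36.6 ± 0.907% (SD, n = 4).

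**Figure D5:**
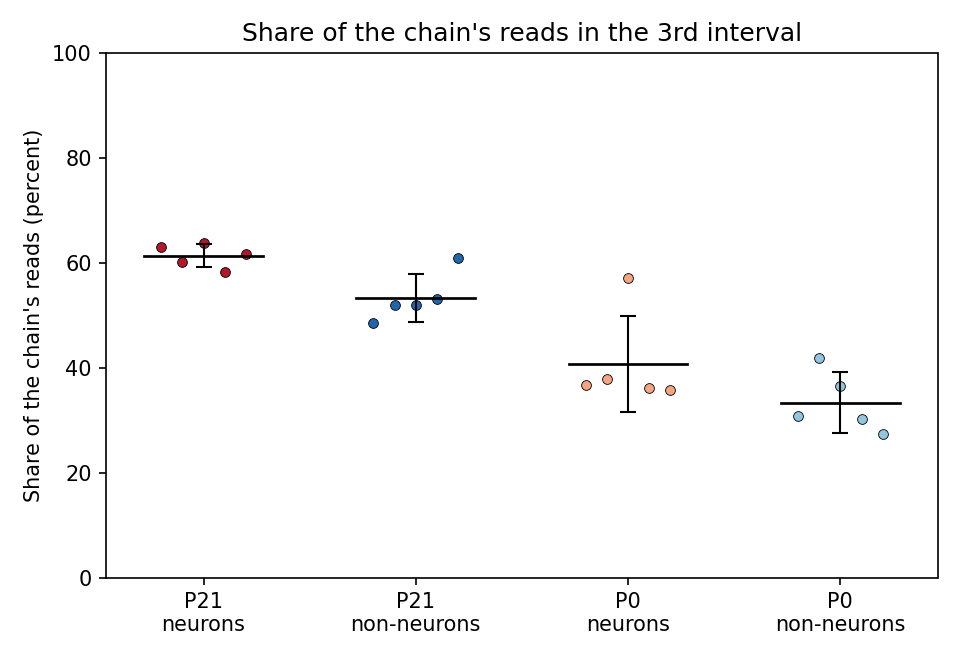
Share of the chain's reads that fell in the third interval, in percent, for each library, with mean ± SD in black. All 10 P21 libraries lie at 48.5% or above, and 9 of the 10 P0 libraries lie at 41.9% or below.

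Age changes in neurons were smaller in the surroundings of the chain, which, unlike the chain, were not chosen by this contrast. Within 50000 bp on either side of the region lay 10 further intervals, of which 9 were tested. In neurons 2 of these were called higher at P21, 2 lower and 5 not called, with log2 fold changes from -0.29 to 1.18. In non-neurons 2 were called higher, 1 lower and 6 not called, from -0.68 to 0.38. Over all tested intervals 31.0% were called higher at P21 in neurons and 28.5% in non-neurons. The nearest on the left, chr10:126951290-126954269, ended 7573 bp before the chain and had 3.14 ± 0.331 CPM in P21 neurons, 2.24 ± 1.19 in P21 non-neurons, 1.39 ± 0.782 in neurons at P0 and 2.20 ± 0.925 in P0 non-neurons (SD, n = 5 each). The nearest on the right, chr10:126981683-126984102, began 12101 bp after it and had 16.0 ± 2.19 CPM in P21 neurons, 19.3 ± 2.52 in P21 non-neurons, 17.9 ± 6.59 in neurons at P0 and 18.5 ± 3.57 in P0 non-neurons. Within these flanks the largest age change in neurons belonged to the left neighbour, at a log2 fold change of 1.18. The smallest among the 5 tested members was 2.25, at the fifth interval, which had 1 to 4 reads per library in P0 neurons. The region was chosen for its rise in neurons, so its difference from the flanks in neurons is a description only.

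Runs of touching intervals were common, with 373 runs of at least 6 in the table. Among 370 stretches of 5 touching intervals that were all tested, stretches that may overlap each other, 1 had every interval at a log2 fold change of at least 2.25 in neurons, and it was the Nxph4 chain itself. In non-neurons 2 stretches had every interval at 0.66 or more, the chain included. The count in neurons uses the contrast on which the region was chosen, and both only describe its place in the table.

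Intervals elsewhere with the pattern most like that of the third interval were sought by the root mean square difference of the 4 group means of log2 CPM, each centred on the interval's own mean, over 13339 intervals of above-median level. The nearest was chr7:19677578-19678427, at a difference of 0.316, with 93.4 CPM in P21 neurons, 15.8 in P21 non-neurons, 5.34 in neurons at P0 and 6.37 in P0 non-neurons. Next came chr17:27195310-27195775 at 0.409 and chr7:148650705-148651170 at 0.451. They were followed by chr8:94171830-94173012 at 0.452 and chr11:97488769-97489463 at 0.481. By the same measure the fourth interval differed from the third by 0.516, the first by 0.616, the second by 0.774 and the fifth by 1.11, against a median of 1.78 over all tested intervals.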

How the data were processed

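DNA methylation was measured in 20 libraries, 5 each of P21 neurons, P21 non-neurons, P0 neurons and P0 non-neurons. The deposited table holds the authors' raw read counts per SmaI/XmaI interval: as the values show, they are integers whose sums differ between libraries. The submitters' processing notes list the mm9 build with Bowtie 0.12.9, cutadapt and FastQC 0.10.1. The counting rule per interval was not given in the sources used here. Column names give the age, the replicate number and a letter, N for neurons and G for non-neurons (taken as the glia of the title). There were 0 columns of other samples.

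Intervals were kept with filterByExpr (minimum count 10, total at least 15), leaving 26679 of 50782. All libraries entered one fit with a mean for each group in edgeR 4.0.16 (R 4.3.3) with TMM scaling and glmQLFit (robust), and 5 contrasts were tested with glmQLFTest. An adjusted p under 0.05 over all tested intervals was a call. The SE of a log2 fold change was derived from its size and the F statistic (size over root F). Shares were compared by exact permutation over libraries, a test chosen after the data were seen. Pairs of replicates of a group differed with a chi-square per degree of freedom of 2.00 to 9.31, a ratio of variances to that of counting error. PCR reads carry no molecular identifiers, so floors cover counting error only.

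Every interval of the region is named. The members, the lists and the rule for similar intervals (the 5 nearest to the tested member with the largest change in neurons) were chosen with earlier results of these data known. Neurexophilin and neurexin genes elsewhere were not placed on mm9 and are not analysed here. Tested on simulated counts for 26679 intervals, the age contrast in non-neurons recovered 97.0% of 4-fold, 73.1% of 2-fold and 33.3% of 1.5-fold changes. The 200 changed intervals were drawn at random from all tested ones, and the others were left unchanged. The members had few reads at P0, so these rates need not hold for them. Alternatives were 3 other scalings (RLE, totals alone, upper quartile), omitting the filter or asking for 20 reads in 5 libraries, DESeq2 1.42.0, removal of each library's lowess trend (span 0.2) with interval length, a replicate block, subsets of the P0 replicates and leaving out each library. Plots were drawn with matplotlib 3.10.9.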

Additional observations from a re-analysis of the deposited data

Results flagged for a closer look

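At 4 intervals of the chain the age change differed between neurons and non-neurons by the interaction term of the fit, which contains the contrast the region was chosen on and is given as a description. The neuronal change exceeded the non-neuronal one by 2.61 ± 0.53 on the log2 scale at chr10:126961842-126963029, 2.10 ± 0.43 at chr10:126963029-126964608, 2.37 ± 0.24 at chr10:126964608-126965533 and 2.40 ± 0.38 at chr10:126965533-126965994 (SE). The fifth interval, at 1.59 ± 0.71, was not called. Both the first and the fifth interval passed the filter only with P21 neurons counted.

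Over the 4 sample groups 52 groups of 5 values were checked against a limit that about 1 in 20 pass by chance (Dixon's test), and 2 passed it. In both the library apart was P0 neuron replicate 3. It had 3.69 CPM over the whole chain, against 6.18 to 6.75 in the others, and 57.1% of the chain's reads in the third interval, against 35.7% to 37.8%. Both values rest on the same 21 reads, of which 12 were in the third interval and 1 in the second.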

How the results depend on the processing

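The count of members called was recomputed for 5 comparisons under 30 alternatives. In non-neurons the count of 4 changed by more than 1.5 times in 2 alternatives: it was 2 without P0 replicates 4 and 5 and 2 without P0 replicates 1 to 3. Both leave fewer libraries. All other counts stayed within 1.5 times of the main ones. Between cell types at P0, 0 members were called under every alternative, DESeq2 included. With 9.78% of all tested intervals called there in the main fit, this says little about the members. The P0 cell type difference of the fifth interval, never called, turned to -0.039 without P0 replicates 1 to 3 and ran from -0.028 (without P0 neuron replicate 2) to 0.36 when single libraries were left out. The difference in age change at the second interval was not called without P0 replicates 1 to 3 (1.64 on the log2 scale). The share of the third interval in non-neurons, whose alternatives were added after the data were seen, differed between the ages by 16.9 to 24.5 points.

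Replicate numbers are shared by all groups. Deviations of same-numbered libraries correlated between the cell types at -0.00701 to 0.322 at P21 and at 0.0451 to 0.21 at P0. Between the ages, where libraries cannot share hypothalami, the correlations were -0.0881 to 0.169. The libraries were fitted as unpaired. Whether neurons and non-neurons of the same number and age came from the same hypothalami was not known here, and such pairing was not tested. With a replicate block 4 members were called in non-neurons and 5 in neurons, as without it. That block gives each number the same effect at both ages, so it does not test pairing within an age. Library totals alone raised the median age change of all tested intervals to 0.26 on the log2 scale in both cell types, with 70.6% of calls in non-neurons and 69.1% in neurons then rising, against 52.5% and 54.1% with TMM. Upper-quartile factors shifted the P21 cell type median to -0.25, with 32.5% of calls higher in neurons against 58.1% with TMM, and 51.1% against 70.8% at P0. At P0 the members held 1 to 23 reads per library outside the sixth interval, which limits all fold changes.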
